A study of Mus musculus with 8 samples.

Results

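The genes described here are 43 genes of ribosome biogenesis and the nucleolus: subunits of RNA polymerase I, the core proteins of the small nucleolar RNA particles, abundant nucleolar proteins, and processing factors of the small and the large ribosomal subunit. They were chosen by gene name, as known members of the pathway. Each was represented by its brightest probe on the arrays, and all 43 were found, among 14783 genes that passed the filter on dim probes. No member was lost to that filter, for which a probe had to exceed the background clearly in either channel on 2 or more arrays. For 41 of the 43 the chosen probe was well above background in both channels on all 8 arrays. The exceptions were Rrp12, with 6 arrays in each channel, and Utp14a, with 5.

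The cells were RAW 264.7, a macrophage-like mouse line of BALB/c origin, exposed at 100 bacteria per cell to a bacterium studied as a potential probiotic. One group received Lactobacillus acidophilus, strain MTCC-10307, and the other Bacillus clausii, strain MTCC-8326. RNA was taken after 1, 2, 4 and 6 h, and on every array RNA of treated cells carried Cy5 and RNA of untreated cells of the same time carried Cy3. RNA of 3 cultures was pooled before labelling, which left 1 array at each time for each bacterium, with nothing repeated. Whether the bacteria shared an untreated pool at a time was not stated in the labels. A whole culture was measured, so fewer cells and less RNA per cell cannot be told apart. All arrays of a bacterium lay on 1 slide and each time had its own position on the slides, so bacterium and slide, and time and position, cannot be told apart. The dyes were not exchanged on any array. A ratio of the same sign on every array can therefore hold a dye bias of the probe, which cannot be told apart from treatment.

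Of the 41174 probes, 42.2% to 47.4% per array stood clearly above background for untreated cells and 39.6% to 51.5% for treated cells, and no spot was saturated. Of 12 macrophage markers, 9 were well above background in both channels on all 8 arrays, and Mrc1 was above it on none. Of the markers of other cell types, 1 of 6 for T cells (Lck) was above it in both channels on all 8 arrays, and none of 4 for B cells, 3 for neutrophils, 5 for fibroblasts and 4 for epithelial cells. The members were bright: their median mean log2 intensity per array lay between 11.1 and 11.5, against 8.24 to 8.64 for all genes tested.

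Ribosome biogenesis begins in the nucleolus, where RNA polymerase I copies the ribosomal RNA genes into a long precursor. Box C/D particles methylate that precursor and box H/ACA particles convert chosen uridines to pseudouridine, each guided by a small nucleolar RNA. A large processome then folds and cuts the precursor towards the small subunit, and a separate series of factors matures the large subunit. In growing cells many of these genes are targets of the transcription factor Myc, and their messages are abundant.

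Of the 43 members, 37 have an entry in the RefSeq table of promoter sequences (assembly GRCm38.p6), which spans 250 bases before to 50 bases after the gene start. The table has no entry for Fbl, Npm1, Rrp12, Utp6, Bop1 and Rrs1. Short words of DNA were counted on both strands. CACGTG, the E-box bound by Myc with Max, was in 6 of the 37 (16.2%) against 7.24% of 27025 promoters of all genes. The ETS-family core CCGGAAG was in 10 of 37 (27.0%) against 9.12%. The palindrome TCGCGA was in 4 of 37 (10.8%) against 2.58%. In the 200 bases before the start alone, the E-box was in 2 of 37 (5.41%, against 5.28% of all genes), the ETS core in 8 (21.6%, against 6.45%) and the palindrome in 2 (5.41%, against 1.86%). Of the 6 members with an E-box, Mybbp1a, Utp20, Wdr43 and Pes1 have it 40, 37, 17 and 2 bases after the start, while Nop2 and Utp18 have it 60 and 20 bases before it. The 100 bases before the start are shown for 7 members on which the results turn, and for Nolc1, Nop2 and Utp18, which hold at least one of the words there. Polr1c, Gar1 and Nhp2 also hold the ETS core there and are not shown. Capitals mark the E-box, the ETS core or the palindrome on either strand, and each sequence reads 5′ to 3′ along the gene.

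Nop56, chr2:130274312-130274411, plus strand: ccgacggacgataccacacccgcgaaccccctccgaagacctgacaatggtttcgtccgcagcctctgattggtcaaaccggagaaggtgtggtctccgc
Nop58, chr1:59684906-59685005, plus strand: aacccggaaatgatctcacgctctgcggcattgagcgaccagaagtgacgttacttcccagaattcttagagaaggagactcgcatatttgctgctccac
Heatr1, chr13:12395275-12395374, plus strand: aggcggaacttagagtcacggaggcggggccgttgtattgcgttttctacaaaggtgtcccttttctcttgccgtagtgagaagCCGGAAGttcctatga
Nop10, chr2:112261826-112261925, plus strand: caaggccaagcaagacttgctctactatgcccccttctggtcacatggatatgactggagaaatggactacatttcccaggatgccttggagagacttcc
Nop14, chr5:34660149-34660248, minus strand: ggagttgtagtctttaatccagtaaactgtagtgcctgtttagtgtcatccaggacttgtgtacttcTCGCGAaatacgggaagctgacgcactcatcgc
Rrp1, chr10:78413044-78413143, minus strand: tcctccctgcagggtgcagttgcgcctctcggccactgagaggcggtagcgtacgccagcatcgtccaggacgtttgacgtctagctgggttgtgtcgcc
Pa2g4, chr10:128565935-128566034, minus strand: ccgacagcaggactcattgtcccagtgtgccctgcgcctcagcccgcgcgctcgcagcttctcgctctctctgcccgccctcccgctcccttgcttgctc
Nolc1, chr19:46075747-46075846, plus strand: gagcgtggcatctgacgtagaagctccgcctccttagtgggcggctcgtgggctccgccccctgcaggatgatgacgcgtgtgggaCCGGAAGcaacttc
Nop2, chr6:125131783-125131882, plus strand: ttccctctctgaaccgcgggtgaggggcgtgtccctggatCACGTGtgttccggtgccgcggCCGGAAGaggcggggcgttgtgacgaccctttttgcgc
Utp18, chr11:93885767-93885866, minus strand: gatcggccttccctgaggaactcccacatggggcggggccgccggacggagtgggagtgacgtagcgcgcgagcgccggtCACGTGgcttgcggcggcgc

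Of these stretches, those of Nop56, Nop58, Nop10, Rrp1 and Pa2g4 hold none of the words, Heatr1 and Nolc1 hold the ETS core, Nop14 holds the palindrome, Nop2 holds an E-box and the ETS core, and Utp18 holds an E-box. A match is a description of letters and not of a bound site.

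Values are log2 ratios of treated to untreated cells, so that 1 is a 2-fold higher and -1 a 2-fold lower level. The mean response to a bacterium is the mean of its 4 arrays. It was tested in limma with time as a block, and a gene was called where the p-value adjusted over all 14783 genes was under 0.05. The spread in that test is the disagreement between the bacteria within each time, and each ± is the standard error of the fit. It holds no scatter between cultures. Ratios are given in the order 1, 2, 4 and 6 h, and where the values of both bacteria stand together, L. acidophilus comes first.

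The nucleolar messages went both ways. With L. acidophilus 9 of the 43 members were higher, where 23.7% of all genes tested were called higher, and 11 were lower, where 18.5% were called lower. With B. clausii 10 were higher, where 23.0% of all genes were called higher, and 14 were lower, where 21.1% were called lower. The median response of the members was -0.034 with L. acidophilus and -0.040 with B. clausii, and that of all genes was 0.016 and 0.0075. As shares of the 43, 20.9% were higher and 25.6% lower with L. acidophilus, and 23.3% higher and 32.6% lower with B. clausii, so that the shares called higher lay near those of all genes and the shares called lower somewhat above them. Among 10310 genes well above background in both channels on all arrays, 23.9% were higher and 24.0% lower with L. acidophilus. With B. clausii the shares were 27.0% and 29.4%. The members there, without Rrp12 and Utp14a, split 9 to 12 and 10 to 14. Beside these genes the excess of lower calls was smaller with both bacteria, but it remained. Nop56 and Npm1 stood highest and Rrp1 and Pa2g4 lowest, with both bacteria. The same shares of all genes are the background for the counts by role below, where the groups are small.

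The counts rest on the time block, the background and single arrays in part. With no time term in limma 7 members were called with L. acidophilus and 13 with B. clausii, and if local backgrounds were left unchanged, 13 and 15. Followed singly were the up to 8 called members with the largest responses in each direction. Of these, without the time term, Wdr43, Nop10 and Nop16 lost both calls. Heatr1, Rrp1b, Nop58, Utp3, Ddx18 and Polr1b lost that with L. acidophilus, and Noc2l and Utp20 that with B. clausii. Smaller responses lost calls too, so that with L. acidophilus only Nop56, Npm1, Ncl, Rrp1, Pa2g4, Bop1 and Utp6 stayed called. With B. clausii 6 members stayed higher and 7 lower. With L. acidophilus the count of called members was 20, and 11 without its 2 h array or without its 4 h array. With B. clausii it was 24, and 15 without its 2 h array or without its 4 h array. Of all genes, 13.9% were higher and 10.3% lower without the 2 h L. acidophilus array, and 13.1% and 8.77% without the 4 h array. For B. clausii these shares were 14.8% and 13.5%, and 13.5% and 13.2%. The split also rests on the loess correction, which removes trends of the ratio along the intensity scale. Whether such a trend came from the dyes or from treatment cannot be told apart. Under median centring alone the members split 3 higher to 17 lower with L. acidophilus, where 9.04% of all genes were higher and 30.3% lower. With B. clausii they split 2 to 36, where 5.69% of all genes were higher and 58.5% lower. That scaling moved the median of all genes to -0.078 and -0.25, and of the members to -0.16 and -0.44. The largest such shift was on the 1 h B. clausii array, where the median of all genes was -0.46 and that of the members -0.77.

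**Figure D1:**
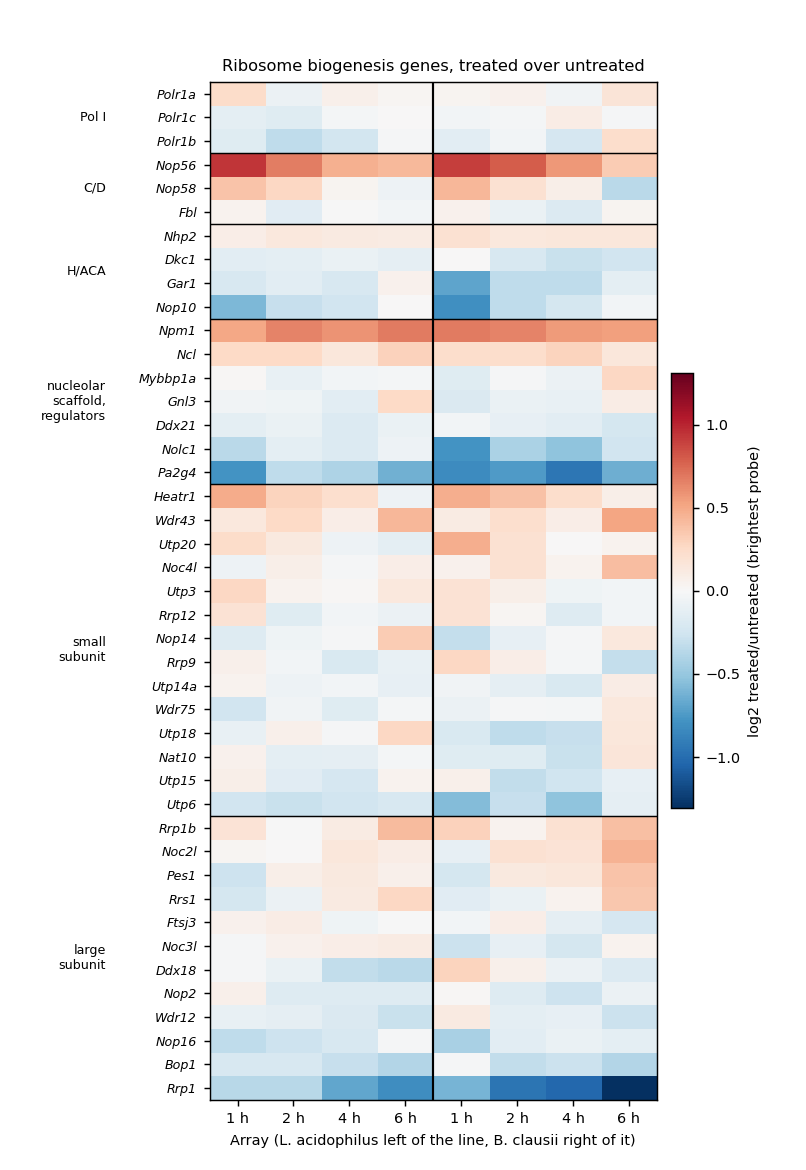
Log2 ratio of treated to untreated cells (colour, red higher and blue lower in treated cells) for the brightest probe of each of the 43 genes (rows, grouped by role) on the 8 arrays (columns, 4 times for each bacterium). Nop56 and Npm1 were higher on all 8 arrays and Rrp1 and Pa2g4 lower on all 8, while most other rows stay pale.

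For RNA polymerase I the brightest probes lay close to 0. Polr1a, the largest subunit, had log2 ratios at 1, 2, 4 and 6 h of 0.24, -0.073, 0.065 and 0.023 with L. acidophilus, and with B. clausii they were 0.035, 0.060, -0.047 and 0.17 (probe at chr6:71929251-71929310 on mm9, the build of all probe positions here). It was above 0 on 6 of the 8 arrays, and neither mean response passed the test (0.065 ± 0.053, adjusted p = 0.352 and 0.054 ± 0.053, adjusted p = 0.437). Polr1b, the second-largest subunit (chr2:128951870-128951929), had ratios of -0.16, -0.34, -0.24 and -0.016 with L. acidophilus, and with B. clausii they were -0.14, -0.033, -0.22 and 0.23. It was below 0 on 7 arrays and fell with L. acidophilus, to a mean of -0.19 ± 0.049 (adjusted p = 0.015), a call that was lost without the 2 h or the 6 h L. acidophilus array. With B. clausii its mean was -0.040 ± 0.049 (adjusted p = 0.54). A second kept probe of Polr1a, dimmer, was above 0 on all 8 arrays, from 0.025 to 0.79, and its means were called (0.39 ± 0.052, adjusted p = 6.86e-04 and 0.44 ± 0.052, adjusted p = 2.13e-04). Polr1c, a subunit shared with RNA polymerase III, ranged from -0.16 to 0.10 and was not called. Of the 3 subunits, none was higher and 1 was lower with L. acidophilus, and none was called with B. clausii.

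In the box C/D particle, which carries out the methylation, 2 of the 3 proteins examined were called higher with L. acidophilus and 1 with B. clausii, and none was called lower. Nop56, a scaffold protein of the particle whose gene also hosts small nucleolar RNAs in its introns, had ratios of 0.94, 0.67, 0.47 and 0.42 with L. acidophilus, and with B. clausii they were 0.91, 0.79, 0.56 and 0.33 (chr2:130104982-130105045). All 8 values were above 0, and within each bacterium they descended from 1 h to 6 h. Its mean response was 0.63 ± 0.043 (adjusted p = 6.61e-05) with L. acidophilus, 1.54-fold, and 0.65 ± 0.043 (adjusted p = 2.43e-05) with B. clausii, 1.57-fold. Nop58, its paralogue and partner in the particle (chr1:59768230-59768289), had ratios of 0.38, 0.27, 0.037 and -0.065 with L. acidophilus, and with B. clausii they were 0.43, 0.20, 0.075 and -0.35. The 1, 2 and 4 h values were above 0 with both bacteria and both 6 h values were below 0. Its mean response was called with L. acidophilus, at 0.16 ± 0.050 (adjusted p = 0.0344), but lost the call on leaving out any L. acidophilus array or the 2 h or 4 h B. clausii array, and with B. clausii it was 0.089 ± 0.050 (adjusted p = 0.18). Fbl, the methyltransferase of the particle (chr7:28964201-28964260), had ratios of 0.047, -0.15, -0.0056 and -0.040 with L. acidophilus, and with B. clausii they were 0.054, -0.084, -0.18 and 0.040. Its values lay on both sides of 0, and the means were -0.036 ± 0.045 (adjusted p = 0.543) and -0.041 ± 0.045 (adjusted p = 0.48).

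The 4 box H/ACA proteins, which act in pseudouridylation and in telomerase RNA stability, were called in both directions. With B. clausii Nop10, Gar1 and Dkc1 fell and Nhp2 rose. With L. acidophilus Nop10 fell and Nhp2 rose. Nop10, the smallest of the 4 (chr2:112102712-112102771), had ratios of -0.59, -0.30, -0.25 and 0.0086 with L. acidophilus, and with B. clausii they were -0.80, -0.34, -0.23 and -0.041. The 1 h value was the lowest with each bacterium and the 6 h values were near 0. Its mean was -0.28 ± 0.043 (adjusted p = 0.00149) with L. acidophilus and -0.35 ± 0.043 (adjusted p = 3.48e-04) with B. clausii. With no time term the adjusted p in limma was 0.118 and 0.0563. Gar1 (chr3:129532258-129532317), a core protein of the particle, had ratios of -0.21, -0.14, -0.21 and 0.060 with L. acidophilus, and with B. clausii they were -0.69, -0.33, -0.33 and -0.13. It was below 0 on 7 arrays, lowest at 1 h with B. clausii, and its mean was -0.13 ± 0.050 (adjusted p = 0.0729) with L. acidophilus and -0.37 ± 0.050 (adjusted p = 5.71e-04) with B. clausii.

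Dkc1, the pseudouridine synthase (chrX:72354473-72354532), had ratios of -0.14, -0.13, -0.084 and -0.12 with L. acidophilus, and with B. clausii they were 0.0024, -0.21, -0.29 and -0.25. Of the 8 values 7 lay below 0 and the 1 h B. clausii value was at 0.0024, and the mean was -0.12 ± 0.049 (adjusted p = 0.0801) with L. acidophilus, not called, and -0.19 ± 0.049 (adjusted p = 0.0134) with B. clausii, called. Its second kept probe, dimmer and at chrX:72345852-72346341, was lower on all 8 arrays, from -0.67 to -0.19. Nhp2, an RNA-binding protein of the particle, was above 0 on all 8 arrays, from 0.085 to 0.20, and its means were 0.11 ± 0.039 (adjusted p = 0.0464) and 0.16 ± 0.039 (adjusted p = 0.0109).

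Among the abundant nucleolar proteins and regulators, 2 of 7 were higher with each bacterium, 2 were lower with L. acidophilus and 3 with B. clausii. Npm1, or nucleophosmin, a histone and ribosome chaperone that shuttles between nucleolus and cytoplasm (chr11:33052480-33052507), had ratios of 0.51, 0.65, 0.59 and 0.68 with L. acidophilus, and with B. clausii they were 0.68, 0.65, 0.56 and 0.54. All 8 values lay between 0.51 and 0.68. The means were 0.61 ± 0.046 (adjusted p = 9.34e-05) and 0.61 ± 0.046 (adjusted p = 3.74e-05), 1.52-fold with each. Npm1 had 1 kept probe, and the position listed for it spans only 28 bases. Ncl, or nucleolin, which binds the precursor RNA and promotes polymerase I transcription (chr1:88247602-88247992), had ratios of 0.27, 0.26, 0.15 and 0.30 with L. acidophilus, and with B. clausii they were 0.23, 0.23, 0.30 and 0.15. Every value lay above 0, and the means were 0.24 ± 0.046 (adjusted p = 0.00349) and 0.23 ± 0.046 (adjusted p = 0.00403). With B. clausii the call was lost without the 4 h array. The direction for Ncl turned in the processed signals deposited with the arrays (-0.043 and -0.052) and, with B. clausii, under median centring (-0.10), and was not called there.

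Pa2g4, an ErbB3-binding growth regulator found in the nucleolus (chr10:127996543-127997151), had ratios of -0.79, -0.34, -0.41 and -0.63 with L. acidophilus, and with B. clausii they were -0.83, -0.74, -0.95 and -0.64. It was lower on all 8 arrays. The mean was -0.54 ± 0.067 (adjusted p = 5.86e-04) with L. acidophilus, 1.45-fold lower, and -0.79 ± 0.067 (adjusted p = 5.96e-05) with B. clausii, 1.73-fold lower. Its second kept probe was lower on all 8 arrays too, from -0.43 to -0.19. Nolc1, a phosphoprotein that ferries particles between nucleolus and Cajal bodies (chr19:46157702-46157761), had ratios of -0.35, -0.13, -0.18 and -0.063 with L. acidophilus, and with B. clausii they were -0.78, -0.41, -0.52 and -0.25. It was below 0 on all 8 arrays and lower with B. clausii than with L. acidophilus at each time. Its means were -0.18 ± 0.043 (adjusted p = 0.00995) and -0.49 ± 0.043 (adjusted p = 7.01e-05). The RNA helicase Ddx21 ranged from -0.23 to -0.032 and was lower with B. clausii (-0.13 ± 0.044, adjusted p = 0.0417), with a mean of -0.12 ± 0.044 (adjusted p = 0.055) with L. acidophilus. The dimmest of its 3 kept probes was further below 0, from -0.99 to -0.31. Gnl3, or nucleostemin (-0.19 to 0.26), and Mybbp1a, a Myb-binding nucleolar protein (-0.16 to 0.28), were not called.

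**Figure D2:**
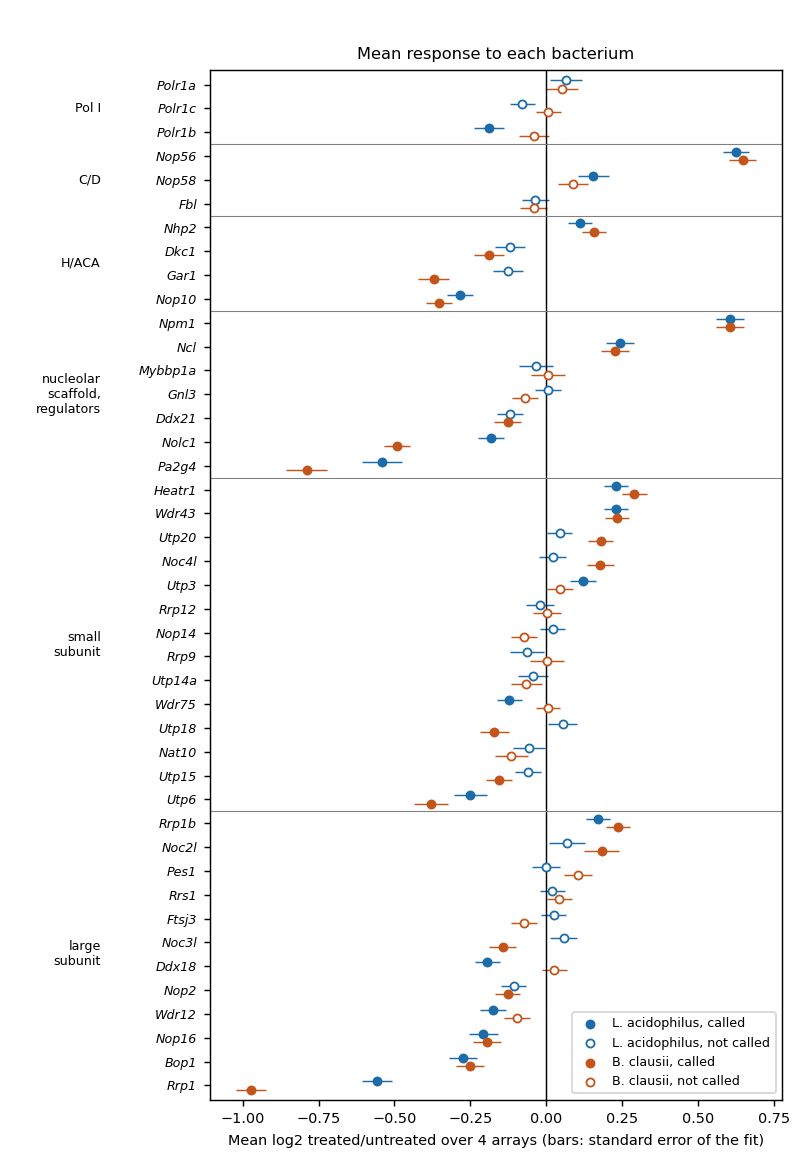
Mean log2 ratio of treated to untreated cells over the 4 arrays of each bacterium (points, blue for L. acidophilus and orange for B. clausii) with the standard error of the limma fit (bars), for the 43 genes grouped by role. Filled points were called at an adjusted p under 0.05. Nop56 and Npm1 lie near 0.6 with both bacteria, and Rrp1 lies at -0.56 with L. acidophilus and -0.97 with B. clausii.

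Of the 14 factors of small subunit processing, 3 were higher and 2 lower with L. acidophilus, and 4 were higher and 3 lower with B. clausii. Heatr1, a component of the processome that is also needed for polymerase I transcription (chr13:12530153-12530858), had ratios of 0.48, 0.29, 0.22 and -0.071 with L. acidophilus, and with B. clausii they were 0.47, 0.38, 0.23 and 0.077. It was above 0 on 7 arrays and highest at 1 h with both bacteria, with means of 0.23 ± 0.041 (adjusted p = 0.00283) and 0.29 ± 0.041 (adjusted p = 6.74e-04). Wdr43, a WD-repeat protein of the processome (chr17:72008028-72008087), had ratios of 0.14, 0.26, 0.090 and 0.43 with L. acidophilus, and with B. clausii they were 0.11, 0.22, 0.089 and 0.51. All 8 were above 0 and the 6 h values were the highest, with means of 0.23 ± 0.040 (adjusted p = 0.00247) and 0.23 ± 0.040 (adjusted p = 0.00176). A second probe of Wdr43 went the other way on all 8 arrays. Utp20, a large scaffold protein (chr10:88209753-88210028), had ratios of 0.24, 0.13, -0.066 and -0.12 with L. acidophilus, and with B. clausii they were 0.47, 0.20, 0.0067 and 0.042. Its mean was 0.045 ± 0.041 (adjusted p = 0.412) with L. acidophilus and 0.18 ± 0.041 (adjusted p = 0.00748) with B. clausii, where the call was lost without the 1 h array.

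Under median centring the B. clausii means of Heatr1, Wdr43 and Utp20 were -0.16, -0.23 and -0.28, so that the direction of these 3 genes turned with the scaling. Utp3, a processome protein also known as Sas10 (chr5:88985007-88985066), had ratios of 0.27, 0.051, 0.017 and 0.14 with L. acidophilus, and with B. clausii they were 0.19, 0.079, -0.055 and -0.032. Its mean was 0.12 ± 0.042 (adjusted p = 0.0438) with L. acidophilus, a call that remained on leaving out only 1 of the 8 arrays (the 6 h B. clausii array), and 0.046 ± 0.042 (adjusted p = 0.4) with B. clausii. Noc4l, a partner of Nop14, ranged from -0.062 to 0.41 and was called with B. clausii (0.18 ± 0.045, adjusted p = 0.0112).

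The group's lowest mean with each bacterium was that of Utp6 (chr11:79754407-79755383), a processome protein with ratios of -0.25, -0.29, -0.25 and -0.21 with L. acidophilus, and with B. clausii they were -0.56, -0.31, -0.53 and -0.12. All 8 lay below 0, and the means were -0.25 ± 0.056 (adjusted p = 0.0076) and -0.38 ± 0.056 (adjusted p = 8.26e-04). Without the 2 h or the 6 h L. acidophilus array the first call was lost. Its second kept probe was below 0 on all 8 arrays too, from -0.14 to -0.063. Wdr75 was lower with L. acidophilus (-0.12 ± 0.040, adjusted p = 0.0386, range -0.25 to 0.14), and Utp15 (-0.16 ± 0.042, adjusted p = 0.0153) and Utp18 (-0.17 ± 0.047, adjusted p = 0.0173) were lower with B. clausii. The other 5, Rrp9, Rrp12, Nop14, Utp14a and the acetyltransferase Nat10, had no called mean response, and their values lay between -0.32 and 0.33. Of these, Rrp9 and Nop14 changed with time.

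Of the 12 factors of large subunit processing, 1 was higher and 5 lower with L. acidophilus, and 2 were higher and 5 lower with B. clausii. Rrp1, whose yeast counterpart is a factor of the early 60S particle (chr10:77864693-77865375), had ratios of -0.37, -0.36, -0.68 and -0.82 with L. acidophilus, and with B. clausii they were -0.61, -0.95, -1.03 and -1.31. It was below 0 on all 8 arrays, lowest at 6 h with each bacterium, and lower with B. clausii at each time. The mean was -0.56 ± 0.050 (adjusted p = 1.62e-04) with L. acidophilus, 1.47-fold lower, and -0.97 ± 0.050 (adjusted p = 1.35e-05) with B. clausii, 1.96-fold lower. Counted from the lowest estimate of the 14783 genes, it ranked 27 with L. acidophilus and 10 with B. clausii. Its paralogue Rrp1b (chr17:32199527-32199586) had ratios of 0.17, -0.0072, 0.11 and 0.41 with L. acidophilus, and with B. clausii they were 0.30, 0.050, 0.20 and 0.40. It lay above 0 on 7 arrays, with means of 0.17 ± 0.040 (adjusted p = 0.00919), a call lost without the 2 h or the 4 h L. acidophilus array, and 0.24 ± 0.040 (adjusted p = 0.00171), which under median centring was -0.15. Of the 4 kept probes of Rrp1b, probe 3 was lower with B. clausii (-0.27 ± 0.059, adjusted p = 0.00574). Rrp1 had 1 kept probe.

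Bop1, Pes1 and Wdr12 form the PeBoW complex, which is required for maturation of the large subunit RNA, and they did not move together. Bop1 (chr15:76283592-76283651) had ratios of -0.21, -0.21, -0.31 and -0.38 with L. acidophilus, and with B. clausii they were -0.017, -0.33, -0.28 and -0.38. It was below 0 on all 8 arrays, with means of -0.27 ± 0.046 (adjusted p = 0.00225) and -0.25 ± 0.046 (adjusted p = 0.00263). Pes1 (chr11:3878919-3878978) had ratios of -0.28, 0.077, 0.12 and 0.070 with L. acidophilus, and with B. clausii they were -0.23, 0.13, 0.15 and 0.37. Only its 1 h values were below 0, and the means were -0.0012 ± 0.046 (adjusted p = 0.987) and 0.10 ± 0.046 (adjusted p = 0.0976). Wdr12 ranged from -0.29 to 0.12 and was lower with L. acidophilus (-0.18 ± 0.043, adjusted p = 0.0113), with a mean of -0.10 ± 0.043 (adjusted p = 0.0987) with B. clausii. The dimmest of its 3 kept probes was above 0 on all 4 L. acidophilus arrays and called higher there (0.23 ± 0.050, adjusted p = 0.00653).

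Nop16 (chr13:54686644-54686703), a factor of the pre-60S particle, had ratios of -0.33, -0.27, -0.21 and -0.012 with L. acidophilus, and with B. clausii they were -0.43, -0.14, -0.086 and -0.12. All 8 lay below 0, with means of -0.21 ± 0.047 (adjusted p = 0.00828) and -0.19 ± 0.047 (adjusted p = 0.00969). The call with L. acidophilus was lost without its 2 h or 4 h array, and the call with B. clausii without its 1 h or 6 h array. Ddx18, an RNA helicase (chr1:123451851-123451910), had ratios of -0.018, -0.086, -0.32 and -0.35 with L. acidophilus, and with B. clausii they were 0.29, 0.062, -0.073 and -0.17. The L. acidophilus values were all below 0, with a mean of -0.19 ± 0.041 (adjusted p = 0.00598) that was not called without the 4 h array, while the B. clausii values lay on both sides of 0, with a mean of 0.027 ± 0.041 (adjusted p = 0.62).

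Noc2l, which escorts pre-60S particles and for whose probes no position was used here, had ratios of 0.028, 0.0014, 0.15 and 0.093 with L. acidophilus, and with B. clausii they were -0.11, 0.20, 0.18 and 0.46. Its mean was 0.069 ± 0.059 (adjusted p = 0.372) with L. acidophilus and 0.18 ± 0.059 (adjusted p = 0.0324) with B. clausii. The second call was lost without the 2 h, the 4 h or the 6 h B. clausii array, and under median centring the value was -0.23. Noc3l, its partner, was lower with B. clausii (-0.14 ± 0.045, adjusted p = 0.0287), as was the methyltransferase Nop2 (-0.13 ± 0.042, adjusted p = 0.0359). Noc3l ranged from -0.28 to 0.11 and Nop2 from -0.28 to 0.069. Rrs1 and the methyltransferase Ftsj3, which ranged from -0.22 to 0.10, had no called mean response.

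On single arrays, where no test is possible, 1 of the 43 members passed 2-fold anywhere: Rrp1 with B. clausii, at -1.03 at 4 h and -1.31 at 6 h. Of all genes, 0.196%, 0.0744%, 0.129% and 0.298% passed 2-fold with L. acidophilus at 1, 2, 4 and 6 h, and 0.609%, 0.183%, 0.304% and 0.609% with B. clausii. Past 1.5-fold the L. acidophilus arrays held 3, 2, 2 and 3 members, and the B. clausii arrays 7, 4, 2 and 2. Of all genes, 1.96%, 1.34%, 1.45% and 2.80% passed 1.5-fold with L. acidophilus, and for B. clausii the shares were 5.79%, 2.30%, 2.75% and 6.18%. The 7 members were Nop56 and Npm1, higher, and Pa2g4, Nop10, Nolc1, Gar1 and Rrp1, lower. In the processed signals no member passed 2-fold on any array.

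The bacteria were compared next, as the difference of their mean responses (L. acidophilus minus B. clausii). Of the 43 members 1 was called, Rrp1, with the higher response to L. acidophilus, where 0.446% of all genes were called in that direction. No member was called the other way, where 0.196% of all genes were. The median difference was 0.0051 for the members and 0.014 for all genes. For Rrp1 the difference was 0.42 ± 0.071 (adjusted p = 0.0488), and B. clausii had the lower value at all 4 times. Leaving out either array of a time removes that time from the difference, and the call was then lost for each of the 8 arrays, with differences of 0.36 to 0.48. It was lost in 20 of 26 alternatives, over which the adjusted p of the limma test reached 0.476. The members with the next smallest p were Nolc1, at 0.31 ± 0.061 (adjusted p = 0.0618), and Ddx18, at -0.22 ± 0.058 (adjusted p = 0.102). Neither passed the test, which does not show that the bacteria act alike on them. The second probe of Nolc1 had the opposite sign (-0.053), while the adjusted p of its brightest probe over all kept probes was 0.0498. A dimmer probe of Ddx21 was called among the probes (0.43 ± 0.073, adjusted p = 0.033), while its brightest probe gave 0.0082. For Nop56 and Npm1 the difference was -0.022 ± 0.062 (adjusted p = 0.858) and -0.00099 ± 0.066 (adjusted p = 0.995). Under median centring, where the bacteria differed by a median of 0.18 over all genes, 25 members were called higher and none lower, where 32.8% of all genes were called higher and 0.561% lower.

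Change with time was tested as the mean of 4 and 6 h minus the mean of 1 and 2 h, over both bacteria. Estimates for the members lay between -0.40 and 0.38. Of the 43 members 4 rose, where 12.2% of all genes rose, and 7 fell, where 12.3% fell, with a median of -0.010 against 0.0022 for all genes. The members that fell were Nop58, Rrp1, Nop56, Utp20, Ddx18, Heatr1 and Rrp9, and those that rose were Nop10, Rrs1, Nop14 and Pes1.

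Nop58 fell by the most, with an estimate of -0.40 ± 0.071 (adjusted p = 0.0052), followed by Rrp1 at -0.39 ± 0.071 (adjusted p = 0.00582) and Nop56 at -0.38 ± 0.062 (adjusted p = 0.00337). The ratio of Nop56 went from 0.94 to 0.42 between 1 and 6 h with L. acidophilus and from 0.91 to 0.33 with B. clausii, so that it stayed above 0, while that of Nop58 crossed 0 and that of Rrp1 moved further below it. In the small subunit group Utp20 (-0.30 ± 0.059, adjusted p = 0.00794), Heatr1 (-0.29 ± 0.058, adjusted p = 0.0081) and Rrp9 fell. Rrp9, a box C/D protein of the U3 particle (chr9:106386845-106387461), had ratios of 0.067, -0.033, -0.20 and -0.095 with L. acidophilus, and with B. clausii they were 0.27, 0.084, -0.031 and -0.32. Its estimate was -0.26 ± 0.078 (adjusted p = 0.0429), and the call was kept on leaving out only 2 of the 8 arrays, the 1 h and the 6 h L. acidophilus arrays. Ddx18 fell, with an estimate of -0.29 ± 0.058 (adjusted p = 0.00793). The estimates of Utp20 and Ddx18 were not called without the 2 h L. acidophilus array.

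Nop10 rose by 0.38 ± 0.061 (adjusted p = 0.00364), from its lowest values at 1 h towards 0. Rrs1, a factor that brings the 5S particle to the large subunit (chr1:9537213-9537272), had ratios of -0.23, -0.073, 0.12 and 0.27 with L. acidophilus, and with B. clausii they were -0.15, -0.083, 0.046 and 0.36. Its values ascended from time to time with both bacteria and crossed 0, for an estimate of 0.33 ± 0.058 (adjusted p = 0.00498). Nop14, a processome protein (chr5:34986699-34987391), had ratios of -0.17, -0.060, -0.017 and 0.33 with L. acidophilus, and with B. clausii they were -0.31, -0.10, -0.014 and 0.14. It too ascended, with an estimate of 0.27 ± 0.060 (adjusted p = 0.0124) that was not called without the 2 h L. acidophilus or the 4 h B. clausii array. Pes1 rose by 0.25 ± 0.066 (adjusted p = 0.0242), a call kept on leaving out only the 1 h or the 6 h L. acidophilus array. The second probes of Nop56, Nop14 and Pes1 had the opposite sign in time (0.23, -0.13 and -0.25). That of Heatr1 kept the sign but was not called (-0.056 ± 0.069, adjusted p = 0.614 in limma over all kept probes). The other members called in time had 1 kept probe, so no time call was repeated by a second probe. Fbl (-0.012 ± 0.063, adjusted p = 0.913), Ncl (-0.019 ± 0.065, adjusted p = 0.862), Npm1 (-0.030 ± 0.066, adjusted p = 0.785), Dkc1 (-0.069 ± 0.069, adjusted p = 0.517), Polr1a (-0.014 ± 0.075, adjusted p = 0.915) and Polr1b (0.11 ± 0.069, adjusted p = 0.304) were not called.

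**Figure D3:**
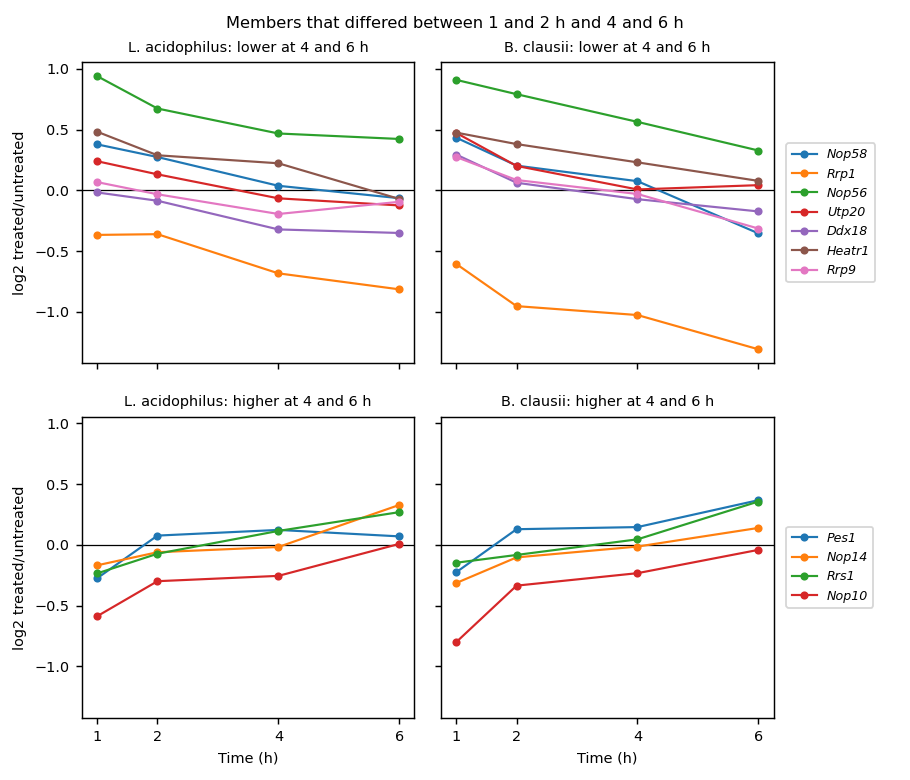
Log2 ratio of treated to untreated cells (vertical axis) against time in hours for the 11 members called between 1 and 2 h and 4 and 6 h, 7 that fell (top) and 4 that rose (bottom), with L. acidophilus on the left and B. clausii on the right. Each point is 1 array; Nop56 descends from above 0.9 at 1 h to 0.42 and 0.33 at 6 h, and Nop10 ascends from -0.59 and -0.80 to near 0.

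The time counts changed with the processing. In the processed signals 2 members rose and none fell in the limma test, where 4.53% of all genes rose and 4.26% fell. Under median centring 11 rose and none fell, where 19.6% of all genes rose and 2.58% fell, around a median shift of 0.084 over all genes. Without the 2 arrays of 1 h none was called, where 4.17% of all genes rose and 3.53% fell. Without those of 6 h 2 fell, where 3.95% of all genes rose and 4.11% fell. Without the 2 h L. acidophilus array the count was 6, against 11, where 5.72% of all genes rose and 6.21% fell. All 11 estimates kept their sign in the processed signals and under median centring, but in the processed signals that of Ddx18 was -0.014 (adjusted p = 0.88), that of Nop14 0.052 (adjusted p = 0.694) and that of Rrp9 -0.046 (adjusted p = 0.612). The difference in time course between the bacteria (late minus early, L. acidophilus minus B. clausii) had a median of 0.0043 over the members. No member was called there, and neither was any gene (0% of 14783), with 0 members and 175 genes at an unadjusted p under 0.05 in limma. That fit had no time block, so its spread also holds the change between 1 and 2 h and between 4 and 6 h. The lack of calls therefore does not show that the time courses were alike. The members with the smallest p were Dkc1 (0.20 ± 0.16, unadjusted p = 0.225), Npm1 (0.17 ± 0.15, unadjusted p = 0.274) and Rrp9 (0.19 ± 0.18, unadjusted p = 0.317).

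Probes of the same gene often disagreed. Of the 43 members 19 had at least 2 kept probes. The 2 brightest gave the same sign for the mean response in 11 of 19 with L. acidophilus (57.9%, against 56.9% of 4835 genes) and in 15 of 19 with B. clausii (78.9%, against 61.2%). For the change with time they gave it in 6 of 19 (31.6%, against 57.6%). For 2 of the 19, Nop56 and Pes1, both probes were called in opposite directions in time, which was so for 1.51% of the 4835 genes. Adjusted p-values of single probes were taken over all 21274 kept probes.

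For Nop56 the second probe lay at chr2:130104489-130104548 and had ratios of 0.53, 0.48, 0.65 and 0.81 with L. acidophilus, and with B. clausii they were 0.58, 0.53, 0.71 and 0.88. It was above 0 on all 8 arrays, as the brightest was, and its means were 0.62 ± 0.039 (adjusted p = 3.74e-05) and 0.68 ± 0.039 (adjusted p = 7.73e-06). In time it rose, by 0.23 ± 0.055 (adjusted p = 0.0169), where the brightest probe fell. So both probes placed Nop56 higher in treated cells, and they disagreed on the order of the times.

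For Ncl 4 probes were kept. The second, at chr1:88247953-88248012, overlaps the brightest and had ratios of 0.54, 0.26, -0.00032 and -0.017 with L. acidophilus, and with B. clausii they were 0.63, 0.24, 0.094 and -0.16. It was higher in the mean, as the brightest was (0.19 ± 0.045, adjusted p = 0.00833 and 0.20 ± 0.045, adjusted p = 0.00623), and fell with time (-0.44 ± 0.064, adjusted p = 0.00207). Probes 3 and 4 ranged from -0.47 to 0.13 and from -0.24 to 0.048, and probe 3 was lower with B. clausii (-0.17 ± 0.041, adjusted p = 0.00801).

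For Wdr43 the second probe spanned 618 bases of the genome (chr17:72002187-72002804), and it was below 0 on all 8 arrays, with ratios of -0.15, -0.14, -0.44 and -0.56 with L. acidophilus, and with B. clausii they were -0.050, -0.38, -0.40 and -1.03. Its means were -0.32 ± 0.066 (adjusted p = 0.00482) and -0.47 ± 0.066 (adjusted p = 5.52e-04), against a called rise with the brightest probe, and the direction of Wdr43 was therefore not settled by these arrays. Pes1 had a second probe at chr11:3879895-3879954 with ratios of 0.75, 0.74, 0.36 and 0.76 with L. acidophilus, and with B. clausii they were 0.52, 0.61, 0.22 and 0.27. That probe was above 0 on all 8 arrays, with means of 0.65 ± 0.052 (adjusted p = 8.08e-05) and 0.41 ± 0.052 (adjusted p = 3.29e-04), where the brightest was not called, and it fell with time (-0.25 ± 0.074, adjusted p = 0.0387), where the brightest rose. The first 30 of the 60 bases of these 4 probes, for which the sign or the call turned with the probe, read as follows in the arrays' own annotation.

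Wdr43 probe 1: ttttggtgtgctacacagctttttcaaatt
Wdr43 probe 2: cagaaactctcaaacctgcatggaaaactc
Pes1 probe 1: agttgtccctcactgagatttggacttggc
Pes1 probe 2: acattgtatgtacaaaagtgtatatggctc

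Which exon or untranslated part each probe lies in was not annotated here. Among the members with called mean responses, Rrp1b, Utp3, Utp15, Nop16, Heatr1 and Noc2l also had a second probe with a mean on the other side of 0 for at least 1 bacterium, and Wdr12 had such a probe as its dimmest. Nop56, Pa2g4, Nolc1 and Utp6 had a second probe on the same side of 0 in both means.

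**Figure D4:**
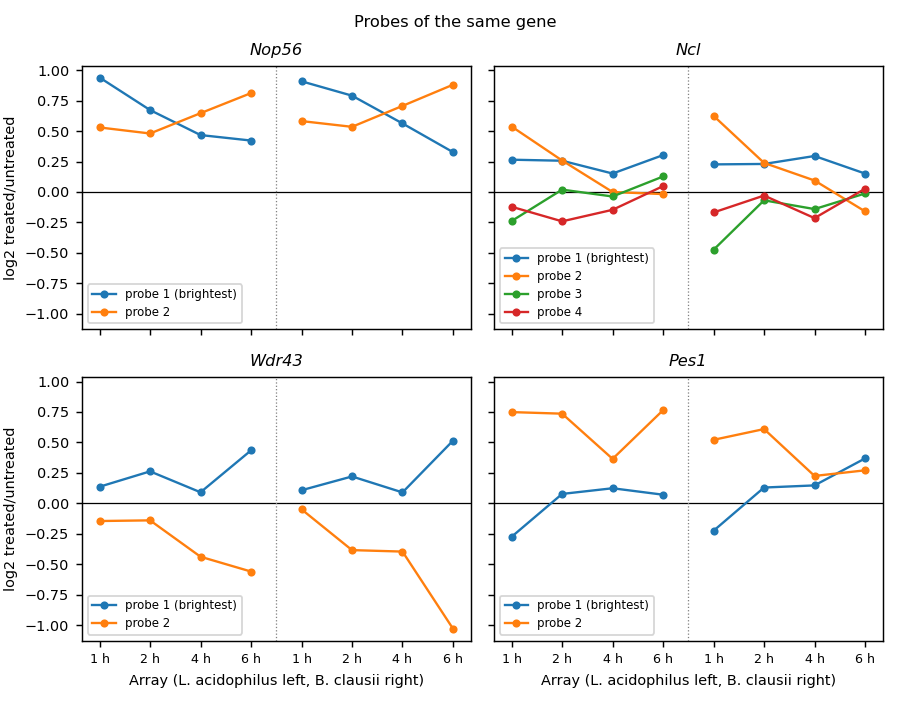
Log2 ratio of treated to untreated cells (vertical axis) on the 8 arrays (L. acidophilus left of the dotted line, B. clausii right of it) for each kept probe of Nop56, Ncl, Wdr43 and Pes1, numbered from the brightest. The 2 probes of Nop56 are both above 0 and cross in time, and those of Wdr43 lie on opposite sides of 0 on every array.

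The rest of the pathway was described from lists of other genes, under the loess scaling alone. Of 11 measured genes of the polymerase I machinery, 2 were higher and 2 lower with L. acidophilus (18.2% each), and 2 higher and 4 lower with B. clausii (18.2% and 36.4%). Among them Taf1d, a part of the promoter selectivity factor, was higher (0.35 ± 0.060, adjusted p = 0.00245 and 0.30 ± 0.060, adjusted p = 0.00376), Polr1f was lower with B. clausii (-0.69 ± 0.054, adjusted p = 4.09e-05), and Polr1g was lower with both (-0.18 and -0.37). Of 40 other factors of the small subunit, 2 were higher and 10 lower with L. acidophilus (5% and 25%). With B. clausii 1 was higher and 13 lower (2.5% and 32.5%), and the median responses were -0.023 and -0.085. Esf1 had the largest fall with B. clausii, -1.12 ± 0.065 (adjusted p = 1.50e-05), against -0.37 ± 0.065 (adjusted p = 0.00262) with L. acidophilus, and the bacteria differed (0.75 ± 0.093, adjusted p = 0.0196). The kinase Riok1 (0.59 ± 0.059, adjusted p = 0.0176) and the helicase Ddx52 (0.35 ± 0.059, adjusted p = 0.0488) were also called between the bacteria, both lower with B. clausii, and Bysl was lower with L. acidophilus (-0.39). The calls of Esf1, Riok1 and Ddx52 between the bacteria depend on the processing. In the processed signals, with normexp offset 0, or without any 2 h or 4 h array, none of the 14783 genes was called between the bacteria.

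Of 42 other factors of the large subunit, 4 were higher and 13 lower with L. acidophilus (9.52% and 31%). With B. clausii 8 were higher and 13 lower (19% and 31%), and the medians were -0.0085 and -0.072. The GTPase Gtpbp4 was lower with both (-0.34 ± 0.040, adjusted p = 4.81e-04 and -0.67 ± 0.040, adjusted p = 1.57e-05) and Urb1 was higher with L. acidophilus (0.31). Of 23 measured genes of the exosome, which trims the precursor, and of RNase MRP, which cuts it, 2 were higher and 6 lower with L. acidophilus (8.7% and 26.1%). With B. clausii none was higher and 9 were lower (39.1%). Rpp14 had the largest fall with both (-0.32 and -0.51).

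Genes that host small nucleolar RNAs in their introns or assemble the particles made up another list. Of 16 measured, 5 were higher and 2 lower with L. acidophilus (31.2% and 12.5%). With B. clausii 7 were higher and 4 lower (43.8% and 25%), and the medians were 0.065 and 0.091. Gas5, a non-coding host of many box C/D RNAs, had ratios of 0.95, 0.52, 0.49 and 0.61 with L. acidophilus, and with B. clausii they were 1.14, 0.50, 0.63 and 0.40. It was above 0 on all 8 arrays, with means of 0.64 ± 0.053 (adjusted p = 1.23e-04) and 0.67 ± 0.053 (adjusted p = 4.15e-05). Snhg1 (0.38 and 0.58) and Snhg5 (0.47 and 0.42), also hosts, were higher with both bacteria. Snhg5, Snhg3 and Snhg1 rose with time (0.61, 0.40 and 0.28).

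Myc itself had ratios of 0.12, 0.34, 0.51 and 0.45 with L. acidophilus, and with B. clausii they were 0.50, 0.43, 0.44 and 0.52. It was above 0 on all 8 arrays, with means of 0.35 ± 0.054 (adjusted p = 0.00149) and 0.48 ± 0.054 (adjusted p = 2.48e-04). Its partner Max was lower with both bacteria (-0.47 ± 0.091, adjusted p = 0.00422 and -0.85 ± 0.091, adjusted p = 1.82e-04), and of the 12 genes of this network 3 were higher and 2 lower with each bacterium (25% and 16.7%). The p53 targets, which respond in many cells when ribosome assembly fails, were split: 5 of 19 were higher and 6 lower with L. acidophilus (26.3% and 31.6%). With B. clausii 6 were higher and 8 lower (31.6% and 42.1%). Ddit4 was the highest of them (0.63 and 0.96) and Sesn1 the lowest with both (-0.56 and -0.55), while Cdkn1a ranged from 0.047 to 0.30 and Mdm2 from -0.62 to 0.24.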

How the data were processed

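RNA of RAW 264.7 cells was hybridised to 8 two-colour Agilent mouse arrays. Per the file headers, Feature Extraction 10.7.3.1 made the deposited values (the submitters' processing notes give 10.5.1.1). The intensity values used, deposited by the authors, were each spot's mean and the median of its surroundings. The log10 ratio of processed signals, red over green, was also deposited, once per spot and once rounded per probe. Deposited 0 or 1 flags mark spots above background, outliers and saturation.

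A local background over 3 times its array's median and marked as an outlier was replaced by the median, and the spot was dropped. Then followed normexp (offset 50), loess within each array and averaging of replicate spots, in limma 3.58.1 (statmod 1.5.0, data.table version 1.17.8, R 4.3.3). A further 549 probes with no usable spot on some array were dropped. Genes were named through RefSeq's table for GRCm38.p6 (27670 probes by accession, 91 by another accession, 6132 by symbol or synonym), and 7281 probes kept the name in the file. Probe positions are those of the files (mm9). The direction of the ratios rests on the dyes named in the labels alone. No array correlated negatively with another over all genes (lowest 0.079), which does not test that direction.

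Limma (lmFit, eBayes, Benjamini-Hochberg over 14783 genes) fitted bacterium and time with 3 residual degrees of freedom, and the difference in time course with 4. The fit was also run on simulated data with independent noise on each array. Those data hold no dye bias and no shared untreated pool, so they do not test the method under this design. The number of arrays limits the precision. Members, lists and tests were chosen with earlier results of these data known. Named are up to 8 called members per comparison and direction (the 3 with the smallest p where fewer than 3 were called), core members, up to 3 called genes of each pathway list, and Myc; other values were chosen after they were seen. The closing section gives the alternatives.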

Additional observations from a re-analysis of the deposited data

Results flagged for a closer look

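The response of Rrp1 differed between the bacteria: L. acidophilus minus B. clausii was 0.42 ± 0.071 (adjusted p = 0.0488) in limma, with both means below 0. B. clausii had the lower value at 4 of 4 times. Slide and bacterium cannot be told apart. The array has 1 kept probe for Rrp1, so no second probe bears on it. With 1 array in each group, single arrays could not be compared with others of their group.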

How the results depend on the processing

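The second-probe alternative was chosen after seeing the data. With L. acidophilus the members called numbered 20, with 13 under the local background as deposited, 7 with no time term, and 11 to 22 on leaving out 1 array. With B. clausii they numbered 24, with 15 under the local background as deposited, 38 under median centring, 13 with no time term, and 15 to 26 on leaving out 1 array. Between the bacteria the count was 1. It was 0 in the processed signals and the series matrix values, with normexp offset 0, no background correction, the local background as deposited, scaling between arrays, no time term or no filter on dim probes, without both arrays of any time, and on leaving out any 1 array (0 to 0 members). It was 25 under median centring, and 2 with the filter on both channels, a trended robust prior or an adjusted p under 0.1. Late minus early the count was 11, with 2 in the processed signals and the series matrix values, 6 with the local background as deposited or no time term, 0 without both 1 h arrays, 2 without both 6 h arrays, 17 at an adjusted p under 0.1, and 6 to 13 on leaving out 1 array. The difference in time course gave 0 members in every alternative run. The shares of all genes called also moved between the alternatives, as given in the Results for several of them.

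Some genes changed sign. In the processed signals and the series matrix values Ncl was at -0.043 with L. acidophilus and -0.052 with B. clausii. Under median centring the B. clausii means of Heatr1, Rrp1b, Wdr43, Ncl, Noc2l and Utp20 were -0.16, -0.15, -0.23, -0.10, -0.23 and -0.28. Wdr43 averaged over its probes was at -0.045 with L. acidophilus and -0.12 with B. clausii. With the second brightest probe the L. acidophilus means of Wdr43, Rrp1b, Utp3 and Nop16 were -0.32, -0.030, -0.097 and 0.049, the B. clausii means of Wdr43, Heatr1 and Noc2l were -0.47, -0.010 and -0.047, and late minus early Nop14, Pes1 and Nop56 were at -0.13, -0.25 and 0.23. The cause of these changes was not tested, beyond the alternatives' own construction. Nop56, Npm1, Rrp1, Pa2g4 and Bop1 with both bacteria, and Nolc1 and Gar1 with B. clausii, kept direction and call in all 26 alternatives. Npm1, Rrp1, Bop1 and Gar1 have 1 kept probe, so the second brightest probe and the mean over probes could not change their values. Nor could an adjusted p under 0.1 lose a call made under 0.05. The series matrix values are the processed ratios rounded, so they repeat that alternative. Leaving out an array of the other bacterium leaves a mean response unchanged. No alternative exchanged the dyes. For the mean responses, their difference and late minus early, the bacteria were paired by time, and the fit with no time term is the unpaired one. For the difference in time course the main fit had no time block, and the alternative in that place added one.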
